A study of Mus musculus with 6 samples.

Results

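The Pramel genes of mouse embryonic stem (ES) cells were followed during a change of culture medium. They were chosen as every gene whose deposited name starts with Pramel, which gave 4 of the 12626 genes in each sample, Pramel1, Pramel3, Pramel6 and Pramel7. A further 3 genes of the same family were listed under an older Pramef name and are described beside them. In RefSeq, Pramef8 is now called Pramel12, Pramef12 is Pramel13 and Pramef17 is Pramel14. RNA had been sequenced from WT J1 ES cells, a single line, in serum (D0) and after 6 and 13 days of conversion to 2i+vitC (D6 and D13). There were 6 samples, a pair of biological replicates for each day. The serum medium held 15% fetal bovine serum. The 2i+vitC medium held no serum and instead the Gsk3 inhibitor CT-99021 at 3 µM, the MEK inhibitor PD0325901 at 1 µM and vitamin C at 100 µg/mL. Both media held LIF at 1000 U/mL, and all cells were grown on gelatin without feeder cells. Day 0 therefore differs from the later days in medium and in time together, and the parts played by the inhibitors, vitamin C, the loss of serum and time cannot be told apart.

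PRAME family proteins are built from leucine-rich repeats. Several serve as substrate receptors of ubiquitin ligases built on the scaffold CUL2, in which they hold the protein to be marked for degradation. The human founder gene is silent in most adult tissues and active in testis and in tumours, and in the mouse the family has expanded into gene clusters with many members used in germ cells, oocytes and early embryos. Pramel7 is known from the inner cell mass of the blastocyst and as a gene downstream of the cytokine LIF and its transcription factor STAT3. PRAMEL7 protein is known to direct UHRF1, the factor that brings the maintenance DNA methyltransferase DNMT1 to newly replicated DNA, to CUL2-dependent degradation. Pramel6, its neighbour, has also been tied to the naive pluripotent state.

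Pramel6 and Pramel7 lie head to head on mouse chromosome 2. On GRCm38 (mm10), Pramel7 covers chr2:87489088-87492418 on the minus strand and Pramel6 covers chr2:87506565-87510865 on the plus strand. Their start sites are 14147 bases apart, with 0 RefSeq genes between them. Each has 3 exons. Pramel1, with 4 exons, covers chr4:143394441-143399819 on the plus strand, and Pramef8, with 5 exons, begins 12336 bases beyond its end at chr4:143412155-143421091 on the same strand. Pramef17, at chr4:143991127-143994369, and Pramef12, at chr4:144391674-144408467, lie farther along the same cluster on the minus strand, with 3 and 4 exons. Pramel3 is alone among them on the X chromosome, at chrX:135302289-135312636 on the plus strand, with 5 exons. RefSeq places 24 Pramel or Oog genes in the 1014026 bases from Pramel1 to Pramef12, and 48 genes with a Pramel symbol in the whole genome, of which 25 are on chromosome 4 and 18 on chromosome 5. Only 7 rows of the table matched any of them by symbol or older name. Every listed gene reached at least 0.991 CPM (read counts scaled to the size of the library, the unit of the table) in 3 or more of the 6 samples, so that a gene on at a single day could not be listed.

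The 250 bases upstream of the annotated start are shown for 4 of the genes, to set 3 genes that rose beside the one that did not pass the test. The sequences are from RefSeq on GRCm38.p6, written 5′ to 3′ on the strand of the gene, with each CpG dinucleotide, the site of DNA methylation, in capitals. The windows are chr2:87492419-87492668 (minus strand) for Pramel7, chr4:143994370-143994619 (minus strand) for Pramef17, chr2:87506315-87506564 (plus strand) for Pramel6 and chr4:143394191-143394440 (plus strand) for Pramel1.
Pramel7: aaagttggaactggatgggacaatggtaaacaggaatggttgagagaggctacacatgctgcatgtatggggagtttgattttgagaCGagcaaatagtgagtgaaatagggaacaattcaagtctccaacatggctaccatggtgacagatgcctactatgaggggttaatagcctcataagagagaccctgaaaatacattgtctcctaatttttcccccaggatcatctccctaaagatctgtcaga
Pramef17: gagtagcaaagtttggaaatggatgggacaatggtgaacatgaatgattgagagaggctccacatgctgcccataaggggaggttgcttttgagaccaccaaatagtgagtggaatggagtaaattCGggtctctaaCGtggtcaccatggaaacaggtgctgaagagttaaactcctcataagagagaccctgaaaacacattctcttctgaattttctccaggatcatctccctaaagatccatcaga
Pramel6: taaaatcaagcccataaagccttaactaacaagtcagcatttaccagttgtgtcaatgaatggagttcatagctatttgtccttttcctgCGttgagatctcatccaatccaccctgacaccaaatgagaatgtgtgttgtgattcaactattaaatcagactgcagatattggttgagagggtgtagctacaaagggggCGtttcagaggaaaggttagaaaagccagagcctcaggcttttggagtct
Pramel1: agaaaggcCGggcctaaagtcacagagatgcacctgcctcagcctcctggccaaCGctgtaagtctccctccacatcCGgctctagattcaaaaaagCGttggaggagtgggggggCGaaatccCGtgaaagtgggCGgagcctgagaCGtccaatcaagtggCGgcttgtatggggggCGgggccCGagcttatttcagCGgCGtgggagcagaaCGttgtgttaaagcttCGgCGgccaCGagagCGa

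Pramel7 held 1 CpG in this window, Pramel6 and Pramef17 held 2 each, Pramel3 held 5 and Pramef12 held 6, whereas Pramel1 held 18. Over 32851 mouse promoters the median was 6. Pramel1 thus lay above 78.3% of all promoters, while 18.8% of promoters had at most the single CpG of Pramel7 and 29.0% had at most the 2 CpGs of Pramel6 and Pramef17. The plot of promoter CpG content places the 6 genes on this distribution. Such low counts are common among promoters, and the DNA methylation of these windows was not measured in the files used here. Pramef8 had no entry.

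**Figure D1:**
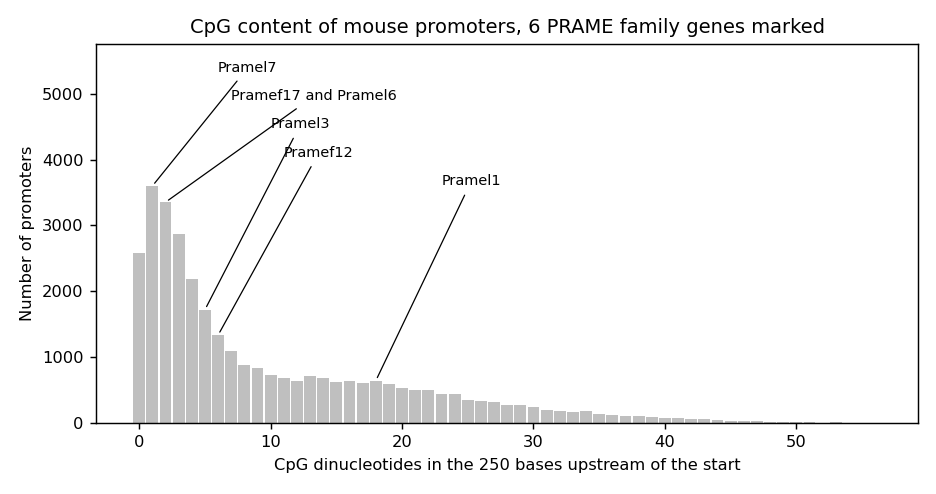
Number of mouse promoters (vertical axis) by the number of CpG dinucleotides in the 250 bases upstream of the start (horizontal axis), in grey bars, with 6 PRAME family genes marked. Pramel7, Pramel6 and Pramef17 sit at 1 or 2 CpGs, Pramel3 and Pramef12 at 5 and 6, near the median, and Pramel1 at 18.

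The windows of Pramel7 and Pramef17, which lie on different chromosomes, could be aligned over 252 columns with 81.0% identity, and no other promoter was closer to that of Pramel7. The closest to Pramef17 was Pramel30, a listed relative in RefSeq on chromosome 4, at 97.6% over 250 columns. The best local alignment of Pramel6 with Pramel7 covered only 10 columns. The closest promoter to that of Pramel6 was Oog4, at 76.8% over 95 columns, followed by Pramel32 at 71.5% over 144. The window of Pramel3 matched those of 4 further X-linked genes, at 98.8% for Gm5128, Gm7903 and Gm15023 and 97.9% for AV320801. A search on both strands for the STAT motif TTCNNNGAA, the octamer ATGCAAAT, the KLF motif GGGNGTGG and the E-box CACGTG found 0 matches in the 6 windows. Those motifs occur in 7.02%, 1.6%, 15.9% and 6.02% of all promoters, so that most promoters lack each of them.

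Reads assigned to genes ranged from 73230745 to 83688345 per sample, and 3 reads were worth 0.034 to 0.042 CPM. All values below are on the deposited log2 CPM scale unless stated otherwise. Changes were tested with limma across all genes and transposon families, with Benjamini-Hochberg adjustment. A gene was called when it changed more than 4-fold with an adjusted p under 0.05, and is said to have risen or fallen when the adjusted p alone was under 0.05. P-values rest on 2 biological replicates per day. An exact test of a single gene on 2 against 2 samples cannot go below p = 0.33.

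Most of the listed PRAME family genes rose between serum and day 6. Of the 4 Pramel genes, 3 were called higher at D6, namely Pramel3, Pramel6 and Pramel7, and Pramel1 did not pass the test. Of the 12626 genes, 5.91% were called higher and 3.90% lower over the same step. The members' count cannot be read freely against that background, because Pramel3, Pramel6, Pramel7 and Pramef17 entered the table only through their 2i+vitC samples. None of these 4 reached 1 CPM in either D0 sample. With the 3 Pramef genes included, 4 of 7 were called and 6 of 7 rose, against 13.8% of all genes that rose and 10.4% that fell at any size of change. At D13 the same 3 Pramel genes and Pramef17 were called higher relative to D0, against 7.45% of all genes called higher and 6.01% called lower. At any size, 6 of 7 rose over that interval, against 20.9% of all genes that rose and 21.8% that fell. The D0 to D6 and D0 to D13 comparisons share their D0 samples. The median log2 change over all genes was -0.01 in each of the 3 comparisons, against 4.92, -0.36 and 3.28 over the 4 Pramel genes for D0 to D6, D6 to D13 and D0 to D13. As RNA came from whole cultures, fewer cells using a gene and less RNA per cell cannot be told apart.

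**Figure D2:**
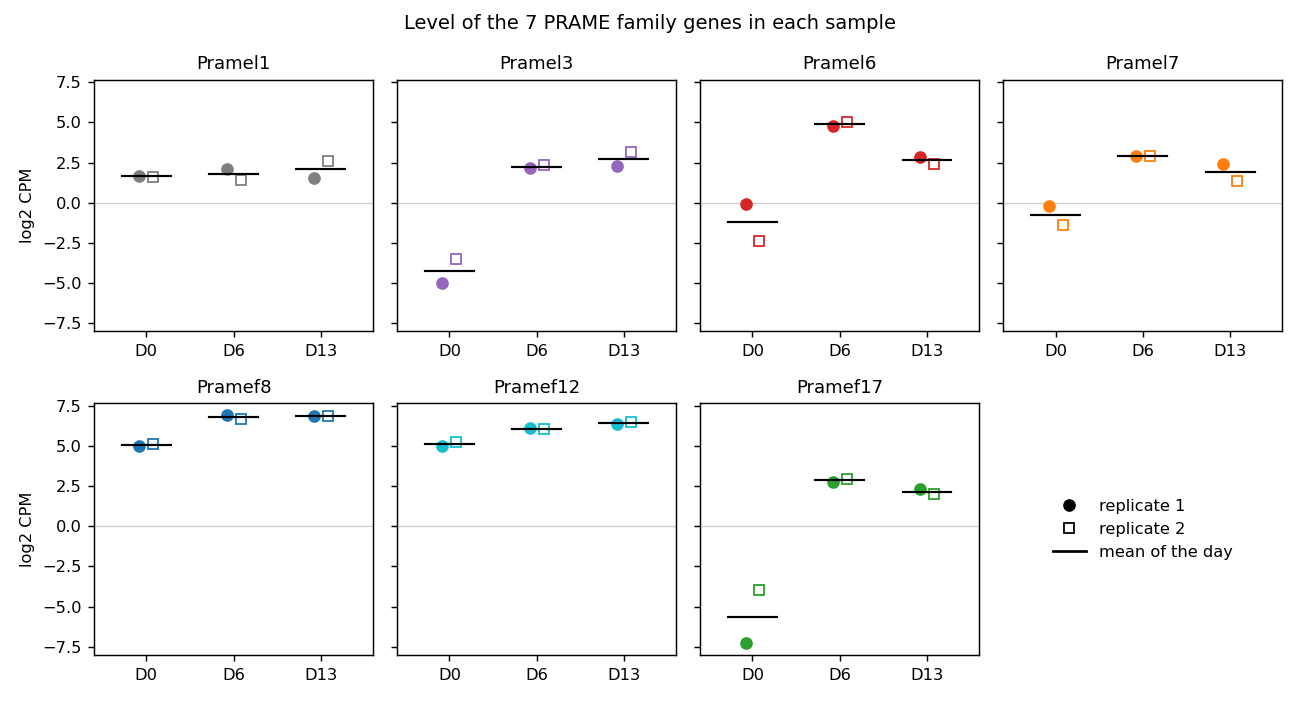
Deposited log2 CPM (vertical axis, the same in all panels) of the 7 PRAME family genes at D0, D6 and D13 (horizontal axis), with filled circles for replicate 1, open squares for replicate 2 and a bar for the mean of the day. Pramel3, Pramel6, Pramel7 and Pramef17 are all below 0 at D0 and above 1 at D6 and D13, Pramel1 stays between 1.40 and 2.58, and Pramef8 and Pramef12 start near 5.

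Pramel6 showed the highest level of the 4 Pramel genes at D6. Its log2 CPM was -0.06 and -2.40 in the D0 replicates, 4.75 and 5.01 by D6, and 2.84 and 2.43 by D13. The days did not overlap, and D6 was highest in both replicates. In reads, these values stood for 75 and 16 in serum, 2115 and 2750 by D6, and 512 and 403 by D13. The log2 change from D0 to D6 was 6.11 (SE 0.65, limma adjusted p = 0.00028), a 69.2-fold rise. The 2 D0 replicates differed by 2.34 on the log2 scale, a wider gap than that of 99.2% of genes, so the size of the rise depended on which one was used. Leaving out replicate 1 of D0 gave a log2 change of 7.28, and leaving out replicate 2 of D0 gave 4.94. From D6 to D13 the log2 change was -2.25 (SE 0.65), a 4.74-fold lower level that did not pass the test (limma adjusted p = 0.082). The remaining difference between D0 and D13 was 3.87 (SE 0.65, limma adjusted p = 0.0020), and 5.04 or 2.70 without D0 replicate 1 or 2.

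Pramel7, the receptor known to act on UHRF1, followed the same order of days at lower amplitude. Its log2 CPM was -0.22 and -1.38 at D0, 2.93 in both D6 replicates, and 2.43 and 1.35 at D13. As for Pramel6, all 3 days were separate and D6 was the highest. Reads numbered 67 and 33 in serum, 599 and 646 by D6, and 386 and 191 by D13. Pramel7 rose by a log2 change of 3.73 (SE 0.51, limma adjusted p = 0.0011), or 13.3-fold, from D0 to D6. Leaving out D0 replicate 1 gave 4.31, and leaving out D0 replicate 2 gave 3.15. The change from D6 to D13 was -1.03 (SE 0.51, limma adjusted p = 0.25), with the 2 D13 replicates 1.08 apart. D13 exceeded D0 by 2.70 (SE 0.51, limma adjusted p = 0.0036), and by 3.27 or 2.12 without D0 replicate 1 or 2. On the log2(CPM + 1) scale, which damps changes of low genes, this last difference was 1.57 and fell below the 4-fold limit. At D0, replicate 1 exceeded replicate 2 for Pramel6 and Pramel7 alike, and the opposite held for Pramel3 and Pramef17.

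Pramel3, the X-linked member, was nearly silent in serum and had overlapping levels at D6 and D13. Its log2 CPM was -4.98 and -3.54 in serum, 2.15 and 2.33 by D6, and 2.31 and 3.17 by D13. Every 2i+vitC sample stood far above both serum samples, and the ranges of D6 and D13 overlapped. Only 2 and 7 reads were counted at D0, against 349 and 426 at D6 and 353 and 677 at D13. Because so few D0 reads make a fitted change sensitive to the 0.5 read added to each count, the ratio of CPM computed from the summed reads is also given. It was 87.2 from D0 to D6, with an exact 95% interval of 45.7 to 192 that covers counting error only. The fitted log2 change was 6.50 (SE 0.58, limma adjusted p = 0.00012), and 5.78 or 7.22 without D0 replicate 1 or 2. From D6 to D13 it was 0.50 (SE 0.58, limma adjusted p = 0.63). The D13 to D0 ratio was 130 (68.1 to 284), and the fitted change was 7.0 (SE 0.58, limma adjusted p = 6e-05), or 6.28 and 7.72 without D0 replicate 1 and 2.

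The count of Pramel3 is uncertain in one respect. Of the 3574 windows of 100 bases in its 3673-base transcript, 2226 (62.3%) also occur in a transcript of AV320801, Gm15023, Gm5128 or Gm7903. Reads from such windows may have been left uncounted or counted for the wrong copy. AV320801, a row of its own in the table and named here after its values were seen, held 3 and 3 reads in serum, 320 and 359 by D6, and 420 and 575 by D13. Its log2 change was 6.62 (SE 0.44, limma adjusted p = 3.4e-05) over the first step and 7.31 (SE 0.44, limma adjusted p = 1.6e-05) from D0 to D13. Both X-linked genes rose, and their reads may not be fully separable.

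Pramel1 stayed within its spread. Its log2 CPM was 1.67 and 1.62 in serum, 2.11 and 1.40 by D6, and 1.56 and 2.58 by D13, and the ranges of all days overlapped. Reads were 250 and 268, 341 and 224, and 211 and 448. The log2 change was 0.11 from D0 to D6 (95% interval -0.88 to 1.11), 0.31 from D6 to D13 (-0.68 to 1.31) and 0.43 from D0 to D13 (-0.57 to 1.42), with limma adjusted p = 0.89, 0.69 and 0.46. None of these intervals reached a 4-fold change. The sign of each of these differences turned when some single samples were left out.

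Pramef8 and Pramef12, members of the chromosome 4 cluster, were already abundant in serum. Pramef8 had a log2 CPM of 5.0 and 5.15 at D0, 6.95 and 6.70 at D6, and 6.91 in both D13 replicates. It rose by 1.75 on the log2 scale (SE 0.21, limma adjusted p = 0.00047) from D0 to D6, 3.36-fold and so short of the 4-fold limit, and then changed by 0.09 (SE 0.21, limma adjusted p = 0.83). Pramef12 had 5.03 and 5.25 in serum, 6.14 and 6.05 by D6, and 6.41 and 6.52 by D13, with no overlap between days. It rose by 0.95 (SE 0.21, limma adjusted p = 0.011) over the first step and stood 1.33 higher (SE 0.21, limma adjusted p = 0.0013) at D13 than at D0. The first of these was 0.91 or 1.00 without D6 replicate 1 or 2 and did not pass, with a lone sample left at D6. Both genes showed replicate gaps of at most 0.25 at each day. All 4 genes that were low in serum had wider gaps than this at D0, and Pramel1 had wider gaps at D6 and D13. Pramel1, which lies 12336 bases from Pramef8 in the same cluster, did not pass the test. The difference between these neighbours was not tested.

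Pramef17, whose promoter window was aligned with that of Pramel7, was nearly silent in serum. It had 0 and 5 reads in serum, 542 and 651 by D6, and 358 and 303 by D13. The log2 CPM was -7.30 and -3.99 in serum, 2.78 and 2.94 by D6, and 2.33 and 2.02 by D13, so that both serum samples lay far below all others. The value of D0 replicate 1 is set by the 0.5 read added to each count. The ratio of CPM, computed from summed reads, from D0 to D6 was 242 (exact 95% interval 103 to 746, counting error only), and that from D0 to D13 was 150 (63.9 to 463). The fitted log2 changes were 8.50 (SE 0.91, limma adjusted p = 0.00029) and 7.82 (SE 0.91, limma adjusted p = 0.00030). They were 6.85 and 6.16 without D0 replicate 1, and 10.16 and 9.47 without D0 replicate 2. From D6 to D13 the change was -0.69 (SE 0.91, limma adjusted p = 0.68). Of its 1654 windows of 100 bases, 932 (56.3%) also occur in a transcript of Gm13128, the older name of Pramel30, so its count is uncertain too. The remaining 5 family genes shared 0 such windows with another gene.

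Between D6 and D13, limma called 0 of the 7 genes in either direction, against 1.09% of all genes called and 4.18% past the adjusted p at any size. At an unadjusted p under 0.05 there was 1, Pramel6. The share of all genes at that unadjusted threshold was not computed, so this count cannot be set against it. With voom precision weights on the recovered reads, 50 of the 12626 genes were called higher and 90 lower. Pramel6 was among those called lower (limma adjusted p = 0.027). It was also called in 5 further alternatives, with the log2 change between -2.08 and -2.25. Whether the D6 to D13 difference of Pramel6 passed thus depended on the fit. For Pramel7 and Pramef17 the D13 replicates were likewise both below the D6 replicates, whereas for Pramef12 both were above. The plot of changes shows these differences beside their errors.

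**Figure D3:**
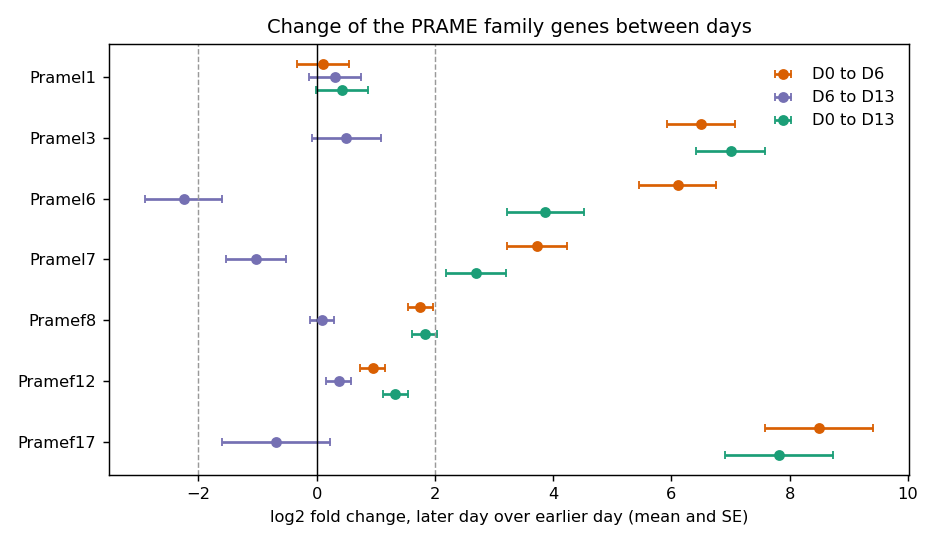
Log2 fold change of the later over the earlier day (horizontal axis, fitted mean with SE) for the 7 PRAME family genes (vertical axis), with D0 to D6 in orange, D6 to D13 in purple and D0 to D13 in green, and dashed lines at a 4-fold change. Pramel3, Pramel6, Pramel7 and Pramef17 lie beyond the right dashed line relative to D0, Pramef8 and Pramef12 lie between 0 and that line, and for D6 to D13 Pramel6 alone lies beyond the left one, at -2.25.

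To compare levels between genes, CPM was divided by the length of the annotated transcript in kb. For Pramel3 and Pramef17, 62.3% and 56.3% of the windows of 100 bases also occur in other genes. Their ranks among the other members are therefore uncertain. At D0 the order was Pramef12 (mean 14.4 CPM per kb, replicates 13.3 and 15.5), Pramef8 (8.68), Pramel1 (1.12), Pramel6 (0.372), Pramel7 (0.333), Pramef17 (0.0198) and Pramel3 (0.016). Pramel6 and Pramel7 overlapped there, and Pramef17 and Pramel3 overlapped at a level of a few reads. At D6, Pramef8 (29.2) and Pramef12 (27.7) overlapped at the top, followed by Pramel6 at 19.2 (17.4 and 21.0). Pramef17 (4.15) and Pramel7 (4.08) overlapped below it, as did Pramel3 (1.29) and Pramel1 (1.25). At D13, Pramef12 led at 36.0, ahead of Pramef8 at 30.9, and Pramel6 was at 4.07 (3.49 and 4.65). Pramef17 (2.58), Pramel7 (2.14), Pramel3 (1.90) and Pramel1 (1.6) followed, each overlapping its neighbour in the order.

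**Figure D4:**
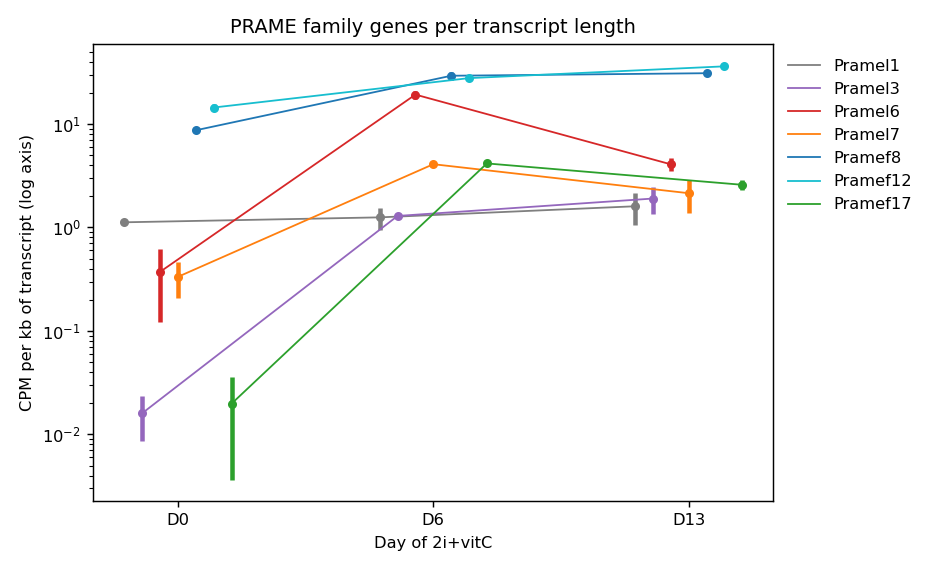
CPM per kb of transcript (vertical log axis) of the 7 PRAME family genes at D0, D6 and D13 (horizontal axis), with a point for the mean of a day and a thick bar from the lower to the higher replicate. Pramel6 moves from 0.372 at D0 to 19.2 at D6 and 4.07 at D13, while Pramef8 and Pramef12 stay above it at every day.

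Summed over the 7 genes, the level was 69.8 and 77.2 CPM in serum, 244 and 225 CPM by D6, and 231 and 239 CPM by D13. Most of the sum came from the Pramef genes at every day. Pramel6 contributed 1.37% and 0.245% of it in serum, 11% and 14.4% by D6, and 3.11% and 2.25% by D13. The share of Pramef12 went from 46.8% and 49.2% at D0 to 28.9% and 29.4% at D6.

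Genes of the ligase into which these receptors are built were examined next. Of 23 genes listed for the CUL2 ligases and the UHRF1 pathway, 21 were in the table. In each comparison limma called 0 of the 21. Of all genes, 5.91% were called higher and 3.90% lower from D0 to D6, and 7.45% and 6.01% from D0 to D13. From D6 to D13, 1.09% were called in either direction. At an unadjusted p under 0.05 there were 8, 5 and 10 of the 21 for D0 to D6, D6 to D13 and D0 to D13. The share of all genes at that unadjusted threshold was not computed, so these counts cannot be set against it. At the adjusted threshold, 4 rose and 1 fell from D0 to D6, against 13.8% and 10.4% of all genes, and 4 rose and 3 fell from D0 to D13, against 20.9% and 21.8%. These shares are close to or below those of all genes, except for the 4 that rose over the first step. Their median log2 change was 0.00 and 0.35, against -0.01 over all genes. Cul2, the scaffold, had a log2 CPM of 6.55 to 7.17 at D0, 7.64 to 7.70 at D6 and 7.41 to 7.48 at D13, and its log2 change from D0 to D6 was 0.81 (SE 0.24, limma adjusted p = 0.042). This passed the test only in part of the alternatives: the limma adjusted p was 0.078 without a trend and 0.064 when centred on the median gene. The change also did not pass without D0 replicate 2 (log2 change 0.50), or without D6 replicate 1 or 2 (0.84 or 0.78). Uhrf1 mRNA, whose protein is a known substrate of PRAMEL7, rose by 1.11 (SE 0.22, limma adjusted p = 0.0060) by D6 and by 1.65 (SE 0.22, limma adjusted p = 0.00054) by D13, both relative to D0. Without D6 replicate 1 or 2 the D6 change was 1.14 or 1.08 and did not pass, with a lone sample left at D6. Uhrf1 went from 8.52 to 8.66 at D0 up to 10.22 to 10.25 at D13. Dnmt1, the maintenance methyltransferase, changed by 0.18 (SE 0.23, limma adjusted p = 0.62) and 0.41 (SE 0.23, limma adjusted p = 0.18). These are mRNA levels, and neither ubiquitination nor protein was measured in the files used here.

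LIF signalling, upstream of Pramel7 in earlier knowledge, was present at the same LIF dose in both media. All 20 genes listed for LIF and STAT3 were in the table. From D0 to D6, 4 rose and 3 fell, and from D0 to D13, 4 rose and 5 fell, with 1 called higher and 1 called lower in each case. Of all genes, 5.91% were called higher and 3.90% lower from D0 to D6, and 7.45% and 6.01% from D0 to D13. At any size of change, 13.8% of all genes rose and 10.4% fell over the first interval, and 20.9% and 21.8% over the second. The list's shares lie somewhat above these over the first interval and near them over the second. These differences in share were not tested. The median log2 change was 0.25 and 0.23. Tfcp2l1, a STAT3 target of naive ES cells, was the one called higher, with log2 changes of 3.21 (SE 0.39, limma adjusted p = 0.00051) and 3.17 (SE 0.39, limma adjusted p = 0.00037). Myc, which encodes a growth-promoting transcription factor, was the one called lower, with log2 changes of -4.78 (SE 0.49, limma adjusted p = 0.00024) and -6.99 (SE 0.49, limma adjusted p = 2.9e-05). Stat3 itself changed by 0.17 (SE 0.27, limma adjusted p = 0.72) and 0.19 (SE 0.27, limma adjusted p = 0.61), and the receptor gene Lifr by -0.65 (SE 0.32, limma adjusted p = 0.19) and -0.74 (SE 0.32, limma adjusted p = 0.098). Socs3, the feedback inhibitor that STAT3 induces, changed by 1.45 (SE 0.44, limma adjusted p = 0.045) and 1.42 (SE 0.44, limma adjusted p = 0.031), and its D0 replicates, at 4.70 and 6.26, were far apart. Without D0 replicate 2 the changes were 0.67 (limma adjusted p = 0.17) and 0.64 (limma adjusted p = 0.14), and without D0 replicate 1 they were 2.23 and 2.20. The first change passed in only part of the alternatives. Without a trend neither passed (limma adjusted p = 0.083 and 0.059). Leaving out D13 replicate 1 or 2 also left the D0 to D13 change short of the threshold, at a log2 change of 1.13 or 1.71.

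**Figure D5:**
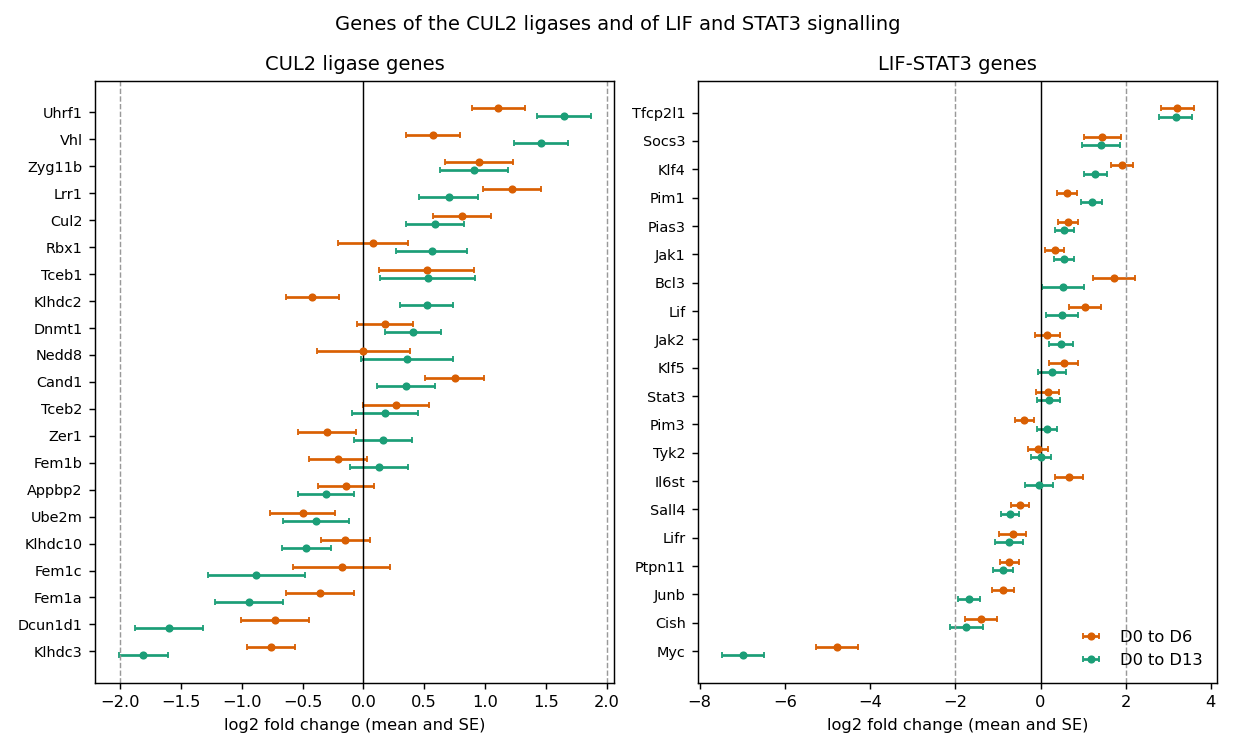
Log2 fold change from D0 to D6 (orange) and from D0 to D13 (green) with SE (horizontal axes, which differ between panels) for 21 genes of the CUL2 ligases and the UHRF1 pathway (left) and 20 genes of LIF and STAT3 signalling (right), with dashed lines at a 4-fold change. All CUL2 ligase genes lie between the dashed lines, with Uhrf1 highest at D13, while Tfcp2l1 and Myc lie outside them on the right panel.

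By the course over the 6 samples, the genes nearest to Pramel6 among 11568 named genes were Il34, Aspa, Cyp2b23, Sgcz and Bhmt2, with a root mean square difference of 0.55 to 0.75 on the log2 scale after each gene was centred on its mean. Il34, the nearest, averaged -1.27 at D0, 3.92 at D6 and 2.70 at D13. Nearest to Pramel1 were Kantr, Tyms-ps, Jak2, Sppl2a and Cep250, at 0.19 to 0.21. The neighbours of the other members were looked up after their values were seen. Those of Pramel7 were Slc52a3, Oc90, Mgat4c, A930004D18Rik and Calcoco2 (0.34 to 0.41). Those of Pramel3 were Avpr1b, Magea4, Dcstamp, Xlr3c and Rhox2b (0.35 to 0.47). Avpr1b averaged -6.58 at D0 and 0.53 at both D6 and D13. These measures of likeness are descriptions over 6 samples of the same libraries.

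The ES cell label was checked against markers, and other cell types were looked for. All 9 ES cell markers were in the table, with a summed level of 4834 to 4874 CPM at D0, 5644 to 5899 CPM at D6 and 4862 to 6981 CPM at D13. Members went both ways. Nanog was called higher from D0 to D6 (log2 change 2.00) and Utf1 was called lower from D0 to D6 (-2.10) and from D0 to D13 (-2.96). At any size, 2 of the 9 rose and 3 fell from D0 to D13, against 20.9% and 21.8% of all genes. Fibroblast markers, of which 4 of 7 were listed, summed to 13.5 to 33.1 CPM at D0, 7.84 to 8.89 at D6 and 9.75 to 10.6 at D13. Of these, 1 was called lower from D0 to D13 (against 6.01% of all genes), Col1a2 (log2 change -3.86, limma adjusted p = 0.0042). Thy1 fell by D6 (-1.89, limma adjusted p = 0.016) and Col1a1 by D13 (-1.98, limma adjusted p = 0.037), while Pdgfrb did not pass the test. Early epiblast markers, 3 of 4 listed and all 3 called lower from D0 to D6 (against 3.90% of all genes), went from 861 to 1004 CPM at D0 to 75.2 to 120 CPM at D6 and 79.2 to 97.8 CPM at D13. Markers of cells resembling the two-cell embryo, 3 of 9 listed, went from 8.34 to 10.4 CPM at D0 to 3.38 to 3.98 at D6 and 0.260 to 0.553 at D13, and all 3 were called lower from D0 to D13 (against 6.01% of all genes). Primitive endoderm markers, 6 of 8 listed, summed to between 414 and 536 CPM in all samples. Relative to D0, 3.90% of all genes were called lower at D6 and 6.01% at D13, and 2 of the 6 markers at both days. These were Col4a1 (log2 change -2.64 at D6 and -5.33 at D13) and Dab2 (-4.32 and -4.66), while the other 4 did not pass the test. Trophoblast markers, 3 of 6 listed, summed to between 5.36 and 15.9 CPM. Of these, Krt7 fell by D6 (log2 change -1.79, limma adjusted p = 0.0082) and was called higher from D6 to D13 (2.20, limma adjusted p = 0.024). The marker genes named here were chosen after their values were seen. None of the listed markers was at 0 in both samples of a day. The part of these cell types in the changes of the Pramel genes was not tested.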

How the data were processed

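Libraries were made from DNase-treated total RNA with a stranded mRNA kit. The authors mapped reads to mm10 with TopHat 2.0.6 and counted RefSeq genes with HTSeq 0.6.1. Transposon families were counted after Bowtie 1.0.0 mapping. The authors combined both tables, scaled them by TMM and deposited log2 CPM from voom. The strand setting of the counting is not given in the sources used here, and Pramef12 has an annotated antisense gene. How reads that match several copies were counted is also not stated.

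Gene values were whole reads plus 0.5 (100% within 0.01 read), so reads were recovered. The deposited log2 values of all 6 samples were fitted with limma 3.58.1 (R 4.3.3), with a mean per day and a variance trend, and p-values were adjusted over 12928 rows. The deposited log2 unit was kept, and a count model was not used. On simulated D0 to D6 data of 12928 rows, 81.5% of 200 genes with a log2 change of 3 were called. The members and lists were chosen with earlier results of these data known. Named genes are all PRAME family rows, Cul2, Uhrf1, Dnmt1, Stat3, Lifr and Socs3, up to 4 called genes with the largest change per list, and the 5 genes most alike in course to the 2 highest Pramel genes. Deposited names lack every capital G. Symbols and older names of Pramel and Oog genes were also searched for without that letter. All other names were matched only as spelled, so other genes spelled with a capital G were not matched. Gene positions are from RefSeq, and strands, exon counts and transcript lengths are from GENCODE vM21. Promoters were aligned with Biopython 1.88.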

Additional observations from a re-analysis of the deposited data

How the results depend on the processing

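The 3 Pramel genes called from D0 to D6 were 3 in every alternative run. Those called from D0 to D13 were 3 in all but log2(CPM + 1), where 2 were called and Pramel7 was at 1.57. One alternative, a filter of 10 reads in 2 samples, removed none of the 12626 genes and so could not move a result. From D6 to D13 the count of 0 became 1, Pramel6, with a replicate block, with only the 2 days compared, with log2(CPM + 1) and with voom precision weights, and it ranged from 0 to 1 when single samples were left out (1 without either D0 replicate). Without a D6 or D13 replicate, which left a lone sample for that day, the D6 to D13 log2 change of Pramel6 was between -2.04 and -2.45 and was not called. The labels do not say whether a replicate number pairs samples across days, and the main fit did not pair them. The differences between replicates correlated over genes at -0.13 for D0 with D6, 0.33 for D6 with D13 and 0.14 for D0 with D13, which does not settle the question. The replicate block changed no other call of the family. With the block, the D0 to D13 change of Lifr had a limma adjusted p = 0.032, against 0.098 in the main fit. Leaving out single samples turned the sign of small differences, none of which passed the test. Pramel1 ranged from -0.25 to 0.47 (D0 to D6), -0.19 to 0.82 (D6 to D13) and -0.08 to 0.93 (D0 to D13), Pramef8 from -0.04 to 0.21 (D6 to D13), and Stat3 from -0.17 to 0.51, -0.19 to 0.23 and -0.15 to 0.53. From D6 to D13, Lifr ranged from -0.26 to 0.08, Socs3 from -0.32 to 0.26 and Tfcp2l1 from -0.40 to 0.32, and centring on the median gene gave 0.03 for Socs3 and 0.02 for Tfcp2l1. The causes were not tested. Where a sample was left out, the lone sample of its day was assumed to vary like the others. Of the family's log2 changes under alternatives, 282 kept direction and call, 5 turned, 6 gained and 1 lost a call. The 282 include those under the filter that removed no gene. Depth limits Pramel3 and Pramef17 at D0, with 9 and 5 reads over both replicates.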
